A study of Mus musculus with 9 samples.

Results

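The genes described here are 10 secreted cytokines and chemokine ligands, Ifng, Il2, Il10, Il16, Csf1, Csf2, Ccl3, Ccl4, Ccl5 and Xcl1. The rule lists them by symbol and uses no measured value, though it was set with earlier results of these data known. They are among the 55471 gene identifiers of the count files. Of the 10 genes, 8 had enough counts to be tested between the groups, and Il10 and Csf2 did not. RNA was sequenced from mouse OT-I CD8+ T cells, whose transgenic receptor recognises an ovalbumin peptide.

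The control group (n = 4) was labelled Bdh1-WT;shCtrl, with an intact Bdh1 gene and an shRNA (a short hairpin that lowers its target transcript) to firefly luciferase, a gene absent from mouse cells. The other group (n = 5) was labelled Bdh1-KO;shOxct1 and is called DKO, as in the labels: a Bdh1 knockout with an shRNA against Oxct1. Bdh1 oxidises the ketone body beta-hydroxybutyrate and Oxct1 activates acetoacetate, so the comparison asks what differs when both steps of ketone use are targeted. All cells of both groups had been activated in culture with antibodies to CD3ε and CD28 and with IL2, transduced, sorted on the Ametrine reporter and transferred into CD45.1 C57BL/6 mice. These hosts kept their own immune cells and were infected with LmOVA, a Listeria monocytogenes strain carrying ovalbumin. CD45.2+ Ametrine+ cells were sorted on day 7 after infection from the spleen. The labels' protocols describe no restimulation in culture after that sort. They give neither the kind of Bdh1 allele nor the number or age of the mice, and do not say whether replicates came from separate animals. The p-values therefore measure the spread between these libraries, which may be technical. Since an shRNA lowers a transcript without removing it, DKO is a knockdown for Oxct1.

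Cytokines and chemokines are the proteins by which a T cell acts on other cells at a distance. Effector CD8+ T cells are known for interferon gamma, the product of Ifng, and for chemokines that draw in macrophages, dendritic cells and further T cells. Many cytokine genes are transcribed in short bursts after the T cell receptor is engaged, and their mRNAs are then degraded quickly, in part through AU-rich elements in the 3′ untranslated region (3′ UTR).

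The AU-rich stretches are shown because the 10 transcripts differ in them. The pentamer ATTTA, the core of such elements, was searched on the transcript strand only, with overlapping matches counted, in the 3′ UTR of the GENCODE M21 transcript of each gene (GRCm38). The 30-base window with the most matches is given for the 5 genes with at least 2 matches in a window, and capitals mark the matches.
Csf2: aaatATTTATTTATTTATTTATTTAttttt
Il2: tATTTATTTAaatATTTAactttaATTTAt
Ifng: ctATTTAttaatATTTAaaactATTTAtat
Ccl3: ttgaaattttATTTAATTTAatcctattgg
Csf1: aaggtcATTTAaatatctATTTAaaaaata
These windows lie on the minus strand for Csf2 (chr11:54247324-54247353), Il2 (chr3:37121039-37121068), Ccl3 (chr11:83648075-83648104) and Csf1 (chr3:107741102-107741131), and on the plus strand for Ifng (chr10:118445333-118445362). The window of Csf2 held 5 pentamers, that of Il2 4 and that of Ifng 3, while those of Ccl3 and Csf1 held 2 each. Among 20981 genes with an annotated 3′ UTR, 64.7% had at least 1 pentamer anywhere in it, 18.5% had a window with 2 or more, 2.52% one with 3 or more, 0.567% one with 4 or more and 0.253% one with 5 or more. Among the 7034 genes whose 3′ UTR was 200 to 900 bases long, 0.910% had a window with 3 or more pentamers. Over the whole 3′ UTR, Csf2 had 9 pentamers in 317 bases, Il2 7 in 581, Ifng 6 in 631, Ccl3 5 in 409 and Csf1 4 in 2111. Il10 had 6 and Ccl4 2, with no more than 1 in any window, and Xcl1 had 1 in all. No pentamer was found in the 3′ UTR of Ccl5 (199 bases) or Il16 (1064 bases). A match describes the letters and was not tested for activity.

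Counts scaled to library size are given as CPM. The libraries held 45205993 to 59853080 counts in genes, and 67.0 to 74.0% of a library's reads fell in genes. Control replicate 1 had the lowest share in genes, 67.0% where the others had at least 71.8%. It also had the largest unmapped share, 16.7% where the others had at most 12.3%. Both targeted transcripts were lower in DKO, which checks the labels. Oxct1 averaged 63.2 ± 5.73 CPM in control libraries and 5.16 ± 0.370 in DKO (SD, n = 4 and 5), and Bdh1 30.5 ± 4.16 and 10.6 ± 1.24 CPM. Their log2 fold changes, DKO over control throughout, were -3.61 and -1.52, with adjusted p 4.58e-09 and 1.36e-04 (edgeR's quasi-likelihood test, Benjamini-Hochberg adjustment over all genes tested). Control replicate 1 stood apart on the first principal component of log2 CPM, at 79.1 where the others ranged from -23.5 to 7.25, and control replicate 3 on the second, at 70.2 where the others ranged from -20.2 to 5.59. Member results are therefore also given without these libraries. The CD8 T cell list was abundant, at 6102 to 8206 CPM summed over its 6 genes in control and 5510 to 6016 in DKO. By value all 6 were lower in DKO, with a median log2 fold change of -0.23 against -0.01 for all genes. At an unadjusted p under 0.05 in the same test stood 4 of the 6, against 16.0% of all genes. After adjustment 1 passed, against 2.83% of all genes. This was Cd8b1, which fell from 2247 ± 280 to 1702 ± 129 CPM (adjusted p 0.0428, the same test). Its bearing on the ligand values was not tested. Cd4 was at 0.172 ± 0.300 and 0.344 ± 0.189 CPM. Of markers of other cells, the B cell factor Pax5 was at 0 counts in all libraries, and the natural killer gene Ncr1 was at 0.0707 ± 0.119 and 0.0618 ± 0.0820 CPM. The list of natural killer and innate lymphoid genes summed to 58.6 to 86.5 CPM in control libraries and 48.3 to 73.2 CPM in DKO, nearly all of it from Klrb1c, the only 1 of its 4 genes above 1 CPM on average. Genes of the B cell list added up to 190.1 to 270.7 CPM in control libraries and 203.7 to 215.2 CPM in DKO, led by Ighm, the CD4 T cell list to 30.7 to 39.3 and 34.6 to 46.6 CPM, and the erythroid and platelet list to 10.9 to 35.7 and 16.9 to 55.8 CPM.

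In edgeR's quasi-likelihood test, none of the 8 tested ligands passed the threshold of 0.05 on adjusted p between DKO and control. Of all 14918 genes tested, 422 did, which is 2.83%, with 197 higher and 225 lower in DKO. At an unadjusted p under 0.05 stood 1 of the 8, Ccl3, against 16.0% of all genes. Of DESeq2 and limma-voom, neither called any of them, and they put 1 and 3 of them at an unadjusted p under 0.05. Of all 14918 genes, DESeq2 put 2641 and limma-voom 3217 there, and they called 1059 and 996. The CPM of control and DKO overlapped for each of the 8 genes, while the groups did not overlap for 8.71% of all genes tested. By value 6 of the 8 were lower in DKO and 2 higher, with a median log2 fold change of -0.20, where all genes had a median of -0.01 with 7246 higher and 7672 lower. Without control replicate 1 the falls of Ifng, Ccl3, Ccl4 and Ccl5 were smaller. The fall of Csf1 and the rise of Xcl1 were then larger, and the signs of Il2 and Il16 turned (values below). These are bulk libraries, in which fewer cells making a transcript and less of it per cell cannot be told apart. Intervals are 95% intervals of the log2 fold change and show which sizes of difference the libraries leave possible.

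**Figure D1:**
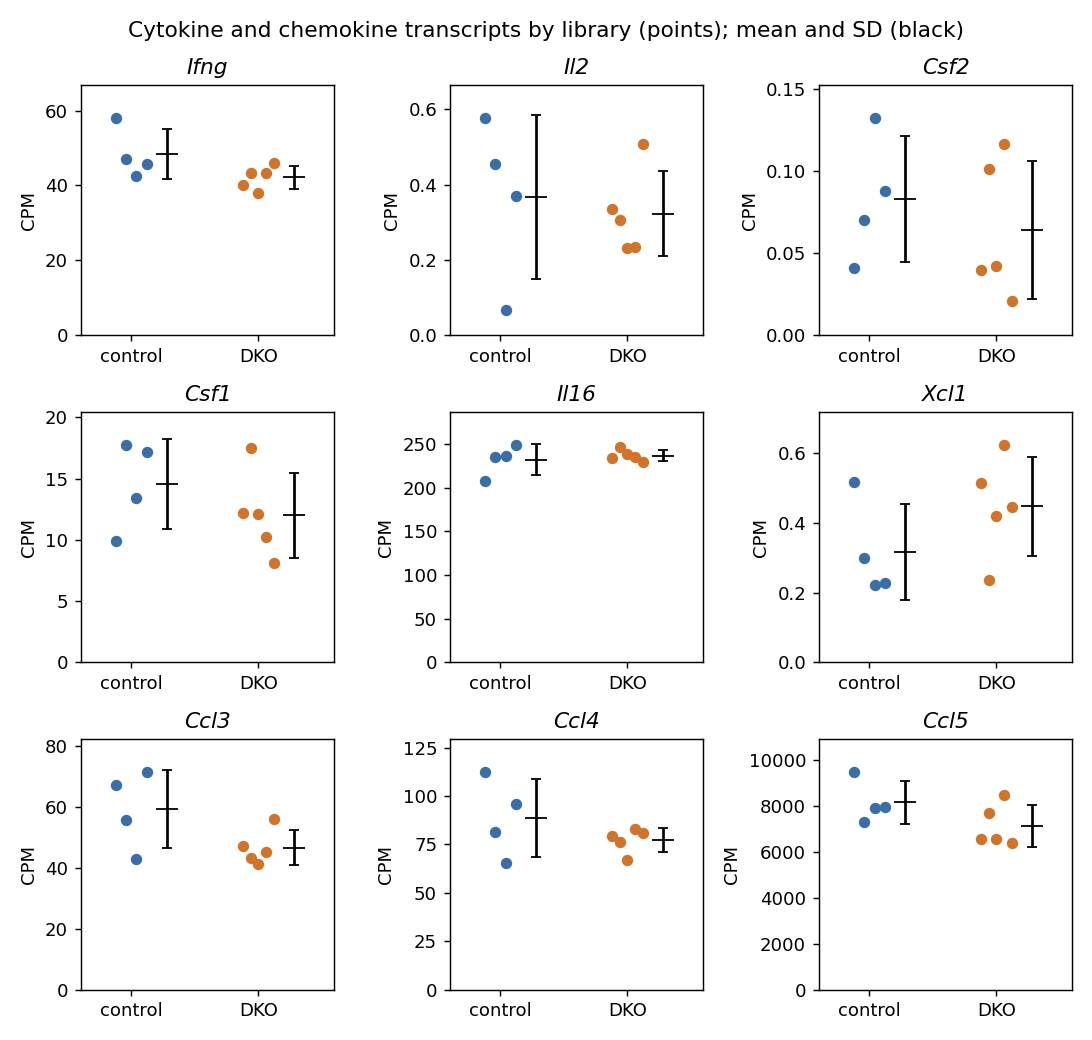
CPM of the 9 detected genes in each library (vertical axes from 0, a scale for each gene), with 4 control points in blue, 5 DKO points in orange and the mean with SD in black beside them. The points of the groups overlap in every panel, and Il10, not drawn, had 0 counts in all 9 libraries.

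Ifng (ENSMUSG00000055170.4, protein-coding, plus strand, chr10:118441046-118445892) encodes the type II interferon, which activates macrophages and antigen presentation. It was at 58.1, 47.2, 42.6 and 45.8 CPM in control replicates 1 to 4 and at 40.1, 43.2, 38.1, 43.5 and 46.0 CPM in DKO replicates 1 to 5. Control replicate 1 was the highest of all libraries, and the other 3 controls lay within or just above the DKO range. The means were 48.4 ± 6.75 and 42.2 ± 3.08 CPM (SD, n = 4 and 5). Its log2 fold change was -0.20 (SE 0.10, interval -0.43 to 0.03, adjusted p 0.382, edgeR's quasi-likelihood test), so a DKO level of 0.744 to 1.02 times control lay inside the interval. Without control replicate 1 the log2 fold change was -0.11 (adjusted p 0.465), and without control replicate 3 it was -0.26 (adjusted p 0.248). Between 1813 and 2816 counts per library lay behind these values.

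The libraries that were high in Ifng were high in Gzma as well, which encodes the cytotoxic protease granzyme A. Across the 9 libraries Gzma had the highest correlation of log2 CPM with Ifng of the 14902 genes compared (Pearson r 0.980), followed by Scimp, an adaptor of antigen-presenting and lymphoid cells (0.979), and the processed pseudogene Gm12854 (0.974). This is a description over libraries of which control replicate 1 stood apart, and it carries no test. Gzma itself averaged 3543 ± 694 CPM in control and 2751 ± 337 in DKO (log2 fold change -0.36, adjusted p 0.179, the same test). Scimp was at 2.76 ± 1.02 and 2.07 ± 0.359 CPM.

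Il2 (ENSMUSG00000027720.7, protein-coding, minus strand, chr3:37120523-37125959, inside a stretch that Adad1 overlaps on the other strand) encodes the T cell growth factor. It was scarce, with 28, 26, 3 and 21 counts in the control libraries and 17, 18, 11, 12 and 24 in the DKO libraries. In CPM these were 0.578, 0.456, 0.0664 and 0.369 against 0.336, 0.305, 0.231, 0.234 and 0.508. Both the highest and the lowest library were controls. The log2 fold change was -0.19 (SE 0.51, interval -1.30 to 0.91, adjusted p 0.888, edgeR's quasi-likelihood test), so levels from 0.405 to 1.89 times control were possible and no difference was detectable at this depth. Its sign turned, to 0.0836, without control replicate 1, and with the other libraries left out in turn it ranged down to -0.53, without control replicate 3.

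Csf2 (ENSMUSG00000018916.5, protein-coding, minus strand, chr11:54247271-54249667) encodes GM-CSF, which expands and activates myeloid cells. Its counts were 2, 4, 6 and 5 in control and 2, 6, 2, 6 and 1 in DKO, 34 in all, too few to be tested with the low-count filter. The means were 0.0830 ± 0.0383 and 0.0643 ± 0.0422 CPM (SD, n = 4 and 5), and the groups spanned nearly the same values. When every gene with a count was tested, its log2 fold change was -0.34 with a standard error of 0.81 (adjusted p 0.890 by edgeR's quasi-likelihood test). The antisense gene Gm12223 overlaps it, and counting by strand and adding both columns gave 1.79 times as many reads, so its level is uncertain.

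Il10 (ENSMUSG00000016529.5, protein-coding, plus strand, chr1:131019845-131024974) encodes an anti-inflammatory cytokine. It had 0 counts in every library, with and without strand, among 463895024 counts in genes over the 9 libraries. A count of 0 allows up to 3 counts over all libraries, or 0.00647 CPM. This limit covers only counting error, since no molecular identifiers were used and PCR copies of 1 molecule cannot be recognised.

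Csf1 (ENSMUSG00000014599.10, protein-coding, minus strand, chr3:107741048-107760469) encodes M-CSF, the survival factor of macrophages. It varied widely within both groups, at 9.91, 17.8, 13.4 and 17.1 CPM in control and 12.2, 17.5, 12.1, 10.3 and 8.08 CPM in DKO. DKO replicate 2 lay among the highest controls and control replicate 1 among the lowest DKO libraries. For Csf1 the log2 fold change was -0.27 (SE 0.22, interval -0.77 to 0.22, adjusted p 0.602, edgeR's quasi-likelihood test). When each library was left out in turn it ranged from -0.45, without DKO replicate 2, to -0.16, without control replicate 2, and was -0.43 without control replicate 1, -0.31 without control replicate 3 and -0.17 without DKO replicate 5. In limma-voom it was -0.47 and with the replicate block -0.15, and none of these passed (adjusted p 0.151 to 0.819 over 17 other settings). With 382 to 1031 counts per library, counting error is small beside this spread, which was 25.1% of the mean in control and 28.9% in DKO.

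Il16 (ENSMUSG00000001741.12, protein-coding, minus strand, chr7:83642825-83745726) encodes a precursor whose cleaved end attracts CD4-bearing cells, and resting lymphocytes are known to hold it. It was the steadiest of the 10 genes, at 207, 235, 236 and 249 CPM in control and 233, 247, 238, 235 and 230 CPM in DKO. Control replicate 1 was the lowest library and control replicate 4 the highest, with all DKO libraries between them. For Il16 the log2 fold change was 0.03 (SE 0.07, interval -0.13 to 0.19, adjusted p 0.881, edgeR's quasi-likelihood test), which leaves 0.914 to 1.14 times control possible. Its sign was not stable, at -0.0333 without control replicate 1 and -0.00536 with the strand columns summed, and it was 0.04 without control replicate 3. Stard5 and the antisense gene 2310044K18Rik overlap Il16, and counting by strand and adding both columns gave 2.32 times as many reads, so the CPM given understates or mixes its reads.

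Xcl1 (ENSMUSG00000026573.7, protein-coding, minus strand, chr1:164931644-164935527) encodes lymphotactin, which attracts cross-presenting dendritic cells through XCR1. It was counted 25, 17, 10 and 13 times in the control libraries and 26, 14, 20, 32 and 21 times in DKO. In CPM these were 0.516, 0.298, 0.221 and 0.229 against 0.514, 0.237, 0.420, 0.624 and 0.444, with DKO replicate 4 the highest and control replicate 1 level with DKO replicate 1. For Xcl1 the log2 fold change was 0.50 (SE 0.40, interval -0.37 to 1.37, adjusted p 0.588, edgeR's quasi-likelihood test). It was 0.82 without control replicate 1 and 0.37 without control replicate 3, and neither passed (adjusted p 0.303 and 0.677, the same test). Gm20743 overlaps Xcl1 on the other strand and counting by strand and adding both columns gave 1.98 times as many reads, so its level is uncertain.

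Ccl5, Ccl4 and Ccl3 lie together on chromosome 11. Ccl5 (ENSMUSG00000035042.2, protein-coding, minus strand, chr11:83525778-83530518) encodes RANTES, which effector and memory CD8+ T cells are known to store. It was at 9462, 7267, 7909 and 7932 CPM in control and 6532, 7667, 6564, 8445 and 6371 CPM in DKO. DKO replicates 1, 3 and 5 lay below all controls, while DKO replicate 4 lay above all controls but replicate 1. The means were 8143 ± 932 and 7116 ± 904 CPM (SD, n = 4 and 5), and the log2 fold change was -0.19 (SE 0.11, interval -0.43 to 0.04, adjusted p 0.403, edgeR's quasi-likelihood test). It was -0.13 without control replicate 1 and -0.21 without control replicate 3. Ccl5 alone made up 93.8 to 95.4% of the counts of the 10 genes and 0.633 to 0.978% of all counts in genes, and by count it ranked 2 or 3 of all genes in each library.

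Ccl3 (ENSMUSG00000000982.5, protein-coding, minus strand, chr11:83647844-83649355) encodes MIP-1α, which attracts macrophages and T cells. Its CPM was 67.0, 55.6, 42.8 and 71.4 in control and 47.3, 43.3, 41.1, 45.2 and 56.1 in DKO. Control replicates 1 and 4 lay above every DKO library, and control replicate 3 lay below all DKO libraries but replicate 3. The means were 59.2 ± 12.8 and 46.6 ± 5.79 CPM (SD, n = 4 and 5). The log2 fold change was -0.35 (SE 0.15, interval -0.67 to -0.03), and p was 0.0364 before and 0.274 after adjustment by edgeR's quasi-likelihood test. Over 17 other settings it ranged from -0.47 to -0.24, and adjusted p from 0.0743, without control replicate 3, to 0.468, without control replicate 4. Without control replicate 1 it was -0.30 (adjusted p 0.288).

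Ccl4 (ENSMUSG00000018930.3, protein-coding, plus strand, chr11:83662584-83664683) encodes MIP-1β, a related attractant of the same gene cluster. It was at 112.5, 81.3, 65.2 and 95.7 CPM in control and 79.6, 76.3, 67.2, 82.8 and 81.2 CPM in DKO. Control replicates 1 and 4 were again the highest libraries and control replicate 3 was the lowest of all. The means were 88.7 ± 20.2 and 77.4 ± 6.18 CPM (SD, n = 4 and 5), and the log2 fold change was -0.20 (SE 0.14, interval -0.50 to 0.11, adjusted p 0.535, edgeR's quasi-likelihood test). It was -0.07 without control replicate 1 and -0.32 without control replicate 3 (adjusted p 0.780 and 0.187, the same test). The CPM of Ccl4 was 1.501 ± 0.141 times that of Ccl3 in control and 1.67 ± 0.146 times in DKO (SD, n = 4 and 5), and these ranges, 1.34 to 1.68 and 1.45 to 1.83, overlapped.

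**Figure D2:**
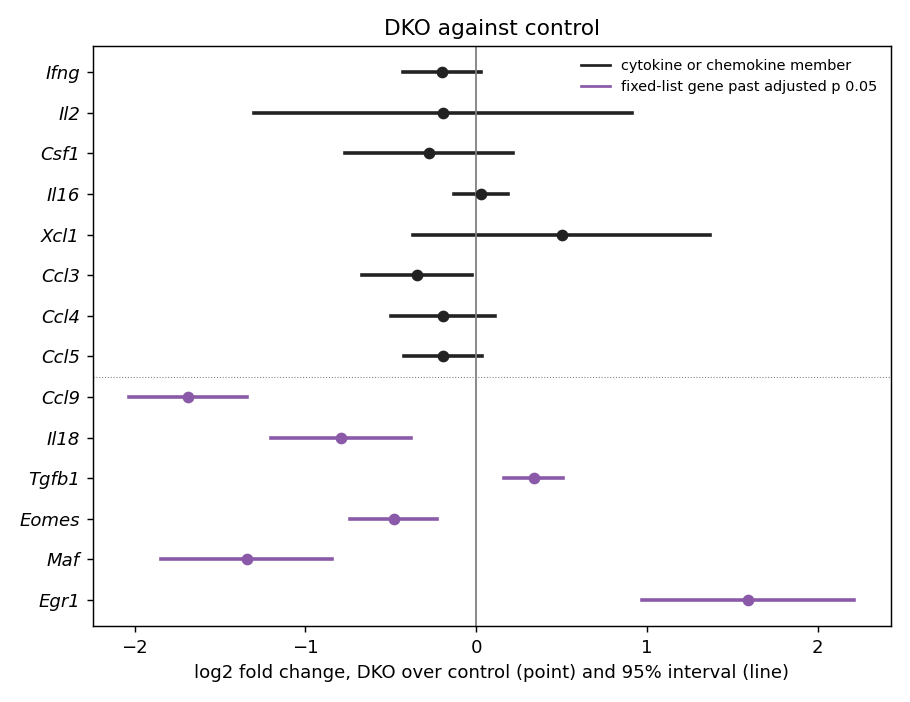
Log2 fold changes of DKO over control with 95% intervals for the 8 tested ligands (black) and for 6 of the 7 genes of the fixed pathway lists that passed the adjusted p of 0.05 (purple). All intervals of the ligands include 0 except that of Ccl3, which ends at -0.03. Each interval of the other 6 genes lies wholly above or wholly below 0, which follows from choosing genes that passed in the same fit.

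Levels were compared between genes per length, as TPM, each gene's counts per base scaled to a fixed total per library, from the unstranded counts and the union of each gene's exons, over the 9 libraries (mean ± SD). Ccl5 was at 25302 ± 2601 TPM, rank 2 by mean among 55230 genes. It was followed by Ccl4 at 399.8 ± 53.7 TPM, Ccl3 at 218.3 ± 41.1 TPM and Ifng at 111.3 ± 9.70 TPM. The ranges of these 4 genes did not overlap each other. Il16 came next at 96.1 ± 7.68 TPM, a range that overlapped that of Ifng. With the longest transcript as the length the order of the pair turned, to 109.1 TPM for Il16 and 90.6 TPM for Ifng. When both strand columns were added, which was done after seeing the data and counts reads under overlapping genes for each of them, Il16 stood at 191.1 ± 15.3 TPM, level with Ccl3 at 189.1 ± 35.2 TPM and above Ifng at 95.3 ± 8.23 TPM. The place of Il16 in this order is therefore uncertain. From the unstranded counts Csf1 was at 8.04 ± 2.27 TPM, apart from Il16 above it and Xcl1 below it. With both strand columns added, Csf1 at 6.88 ± 1.94 TPM and Xcl1 at 4.04 ± 1.86 TPM overlapped. At the bottom the ranges ran into each other, with Xcl1 at 2.38 ± 0.881 TPM, Il2 at 0.954 ± 0.416 TPM and Csf2 at 0.293 ± 0.161 TPM, before Il10 at 0. The 2 genes with the densest ATTTA windows, Csf2 and Il2, were the lowest of the detected ligands per length, while Ifng, with 3 in a window, stood among the high ones. The most abundant, Ccl5, had no ATTTA in its 3′ UTR. Il16 had none either and lay below Ccl4, which had 2. Xcl1, with 1, overlapped Il2 in level, and Il10, with no more than 1 in any window, was at 0. A link between pentamers and level was not tested.

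**Figure D3:**
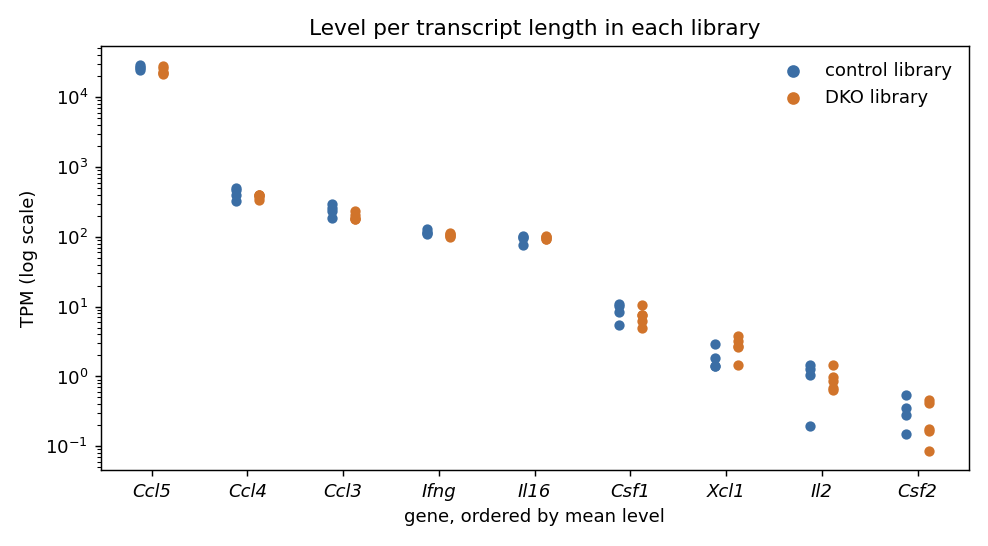
TPM of each detected gene (horizontal axis, ordered by mean) in each library on a log scale, with control libraries in blue and DKO libraries in orange. Ccl5 lies near 25302 TPM, well above Ccl4 at 399.8 TPM, and Xcl1, Il2 and Csf2 run into each other at the low end.

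Ifng, Xcl1, Ccl3, Ccl4 and Ccl5 are described in textbooks as released together by activated CD8+ T cells, so their variation between libraries within a group was compared in pairs, as deviations of log2 CPM from the group mean. All 10 pairs had a Pearson r above 0, but none passed Benjamini-Hochberg adjustment over the 10 pairs (exact permutation within groups, two-sided, smallest possible p 0.000347). The closest pair was Ccl3 and Ccl4, with r 0.856 (exact permutation p 0.0243, adjusted 0.142) and Spearman's rho 0.867 (exact permutation p 0.0160, adjusted 0.160). The 2 libraries farthest from the median of the first gene of a pair were also left out. For Ccl3 these were control replicates 3 and 4, and without them r was 0.739. Ifng and Ccl4 followed with r 0.8292 (exact permutation p 0.0285, adjusted 0.142) and rho 0.683 (exact permutation p 0.0868, adjusted 0.326), and r was 0.718 without control replicate 1 and DKO replicate 5. Ifng and Xcl1 had r 0.536 over all 9 libraries (exact permutation p 0.172, adjusted 0.268) and rho 0.633 (exact permutation p 0.102, adjusted 0.326). Without control replicate 1 and DKO replicate 5 their r was 0.131. Ccl3 and Ccl5 were the least related pair, with r 0.0504 (exact permutation p 0.899, adjusted 0.899) and rho 0.0333 (exact permutation p 0.952, adjusted 0.952).

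**Figure D4:**
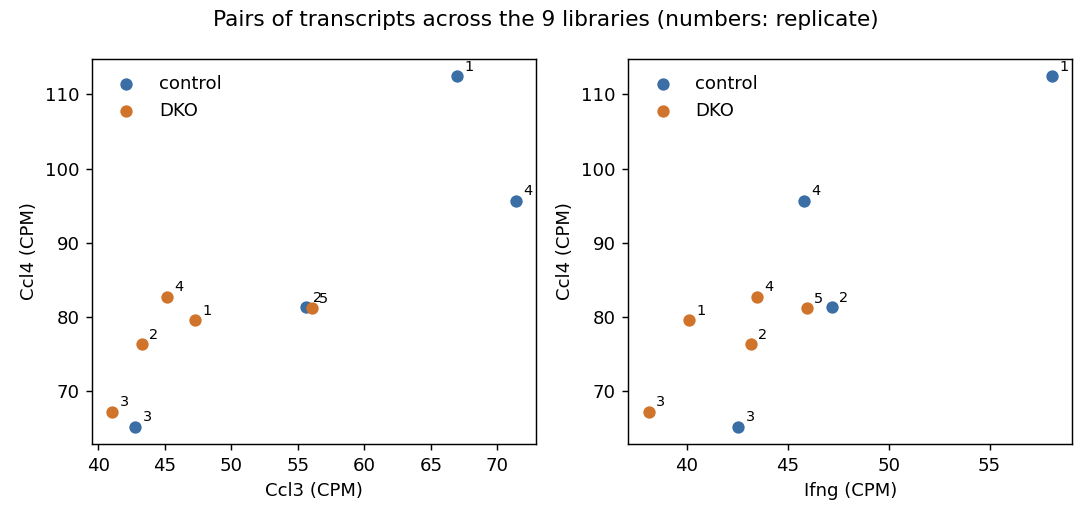
CPM of Ccl4 (vertical axes) against Ccl3 (left) and Ifng (right) in each library, control in blue and DKO in orange, with replicate numbers beside the points. In both panels control replicate 1 is highest in Ccl4 at 112.5 CPM and control replicate 3 lowest at 65.2 CPM.

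The receptors of these ligands were counted in the same libraries. Of 16 receptor genes, 13 were tested and none passed the threshold of 0.05 after adjustment, with either edgeR's quasi-likelihood test or limma-voom. At an unadjusted p under 0.05 stood 1 of them in edgeR's test and 5 in limma-voom, and DESeq2 called Xcr1. Of all 14918 genes, 2384 and 3217 stood there, and DESeq2 called 1059. By value 6 of the 13 receptor genes were higher and 7 lower, with a median log2 fold change of -0.03 against -0.01 for all genes. Xcr1, the receptor of Xcl1, was at 29.2 ± 4.63 and 21.97 ± 2.09 CPM (log2 fold change -0.41, adjusted p 0.112, edgeR's quasi-likelihood test). Of the interferon gamma receptor, Ifngr1 was at 538.4 ± 76.9 and 600.2 ± 69.2 CPM, while Ifngr2 was at 0.667 ± 0.297 and 0.606 ± 0.436 CPM.

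Of 54 further ligands on a fixed list, 13 were tested and 3 passed. Ccl9 and Il18 fell and Tgfb1 rose, against 2.83% of all genes called in either direction. DESeq2 and limma-voom called the same 3 genes, among 1059 and 996 called of all 14918 genes. The other 10 tested did not pass, and 16 of the 54, among them Il17a, Il21 and Il22, had 0 counts in all libraries.

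Ccl9 (minus strand, chr11:83572919-83578636), a chemokine that binds CCR1 and is known from myeloid cells, lies between Ccl5 and Ccl3. It was at 63.9, 54.8, 57.9 and 49.5 CPM in control and at 14.4, 22.9, 18.0, 19.3 and 13.0 CPM in DKO, with every DKO library below every control. Its log2 fold change was -1.69 with a standard error of 0.16 (adjusted p 3.15e-04 by edgeR's quasi-likelihood test), and it passed without any 1 of the 9 libraries. From Ccl5 to Ccl4 this stretch of chromosome 11 is 138.9 kb long and holds 7 annotated genes, 6 of them tested. Of these 6 only Ccl9 passed. Ccl6, the neighbour of Ccl9, averaged 5.50 ± 1.06 CPM in control libraries and 4.45 ± 0.665 in DKO (adjusted p 0.449, the same test). The differences between Ccl9 and its neighbours were not themselves tested.

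Il18, a cytokine that induces interferon gamma together with IL-12, was at 9.18, 5.75, 6.33 and 7.98 CPM in control and 3.80, 5.61, 4.10, 3.45 and 4.13 CPM in DKO. The groups did not overlap, though DKO replicate 2 came close to control replicate 2. Between the groups Il18 fell by 0.79 on the log2 scale with a standard error of 0.19 (adjusted p 0.0477 by edgeR's quasi-likelihood test), and the call was kept only without control replicate 2 or without DKO replicate 2 of the 9 omissions. Over the 9 omissions its adjusted p ranged from 0.0330 to 0.133.

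Some myeloid markers also fell, and others did not. Of the 12 genes of the myeloid list 10 were tested and 2 passed, both lower, against 2.83% of all genes called in either direction. At an unadjusted p under 0.05 in edgeR's quasi-likelihood test stood 4 of the 10, against 16.0% of all genes. By value 3 of the 10 were higher and 7 lower, with a median log2 fold change of -0.08 against -0.01 for all genes. The 12 genes of the myeloid list summed to 251.6 to 290.8 CPM in control and 201.6 to 216.6 CPM in DKO, and 8 of the 12 were above 1 CPM on average. Ctss fell from 81.2 ± 8.22 to 51.3 ± 5.83 CPM (adjusted p 0.00734) and Cd68 from 29.2 ± 4.98 to 16.8 ± 2.51 CPM (adjusted p 0.0138), both in edgeR's quasi-likelihood test. Among the genes of the list that did not pass were Lyz2, Csf1r and Adgre1, which were low. Lyz2 was higher in DKO by value, at 2.43 ± 1.08 and 5.85 ± 4.39 CPM (log2 fold change 1.27, adjusted p 0.206, the same test), with Csf1r at 1.84 ± 1.14 and 2.37 ± 1.95 CPM and Adgre1 at 1.04 ± 0.796 and 1.01 ± 0.718 CPM. The level of Csf1r is uncertain, since adding both strand columns gave 5.54 times as many reads. S100a8 had no counts in control and 0.122 ± 0.132 CPM in DKO. The part of these markers in the Ccl9, Il18, Csf1 or Ccl3 values was not tested.

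Tgfb1, which encodes a cytokine that restrains T cell activation, was at 80.7, 97.3, 96.5 and 96.2 CPM in control and 118.4, 116.2, 119.9, 118.2 and 112.0 CPM in DKO, so that every DKO library exceeded every control. Its log2 fold change was 0.34 with a standard error of 0.08 (adjusted p 0.0447 by edgeR's quasi-likelihood test). Of the 9 omissions the call was kept only without control replicate 1, where the log2 fold change was 0.26 and adjusted p 0.0158. Adjusted p reached 0.127 without DKO replicate 1.

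Among transcription factors that act on cytokine genes, all 24 on the fixed list were tested. Of these 3 passed in edgeR's quasi-likelihood test, with Egr1 higher and Maf and Eomes lower. DESeq2 called Hlx and Irf4 besides these 3, and limma-voom called Hlx, Irf4 and Runx3 besides. Of all 14918 genes, DESeq2 called 1059 and limma-voom 996. At an unadjusted p under 0.05 in edgeR's test stood 10 of the 24, against 16.0% of all genes, and 2.83% of all genes passed after adjustment. By value 16 of the 24 were higher and 8 lower (median log2 fold change 0.14 against -0.01 for all genes). Control replicate 1 lay apart in some of them. Nfatc3 was at 279 CPM there, where the other controls lay between 661 and 801 and DKO between 624 and 711. Id2 went the other way, at 3231 CPM where the other controls lay between 2272 and 2503. The median of the list without that library was not computed. Egr1, an immediate early gene of T cell receptor signalling, was at 5.39, 8.03, 3.25 and 9.81 CPM in control and 22.9, 14.5, 18.6, 18.3 and 25.7 CPM in DKO, with no overlap. Its log2 fold change was 1.59 with a standard error of 0.28 (adjusted p 0.0143 by edgeR's quasi-likelihood test). Jun, Junb, Fos, Egr2 and Nr4a1, further immediate early genes of the list, did not pass. Their log2 fold changes were -0.27, 0.02, 0.13, 0.31 and 0.55 (adjusted p 0.794, 0.958, 0.952, 0.779 and 0.251, the same test).

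Maf, a factor that acts on Il10 and Il4, was at 3.57, 2.42, 2.32 and 2.00 CPM in control and 0.910, 1.08, 1.26, 0.799 and 1.02 CPM in DKO, again with no overlap. Its log2 fold change was -1.34 with a standard error of 0.23 (adjusted p 0.0117 by edgeR's quasi-likelihood test). Eomes, a T-box factor that acts on Ifng, fell from 72.0 ± 11.3 to 51.5 ± 5.12 CPM (log2 fold change -0.48, adjusted p 0.0497, the same test). Its call was kept only without control replicate 1 of the 9 omissions, whereas those of Egr1 and Maf were kept in all 9. Tbx21, the related factor T-bet, was at 1107 ± 113 and 1293 ± 111 CPM (adjusted p 0.253, the same test).

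Of 13 genes known to respond to interferon gamma, 12 were tested. By value 8 of the 12 were lower and 4 higher, with a median log2 fold change of -0.14 against -0.01 for all genes. Gbp6, a guanylate-binding protein of the interferon response, was at 10.6 ± 2.18 and 6.32 ± 1.46 CPM and Gbp3 at 74.3 ± 4.15 and 60.7 ± 6.45 CPM (adjusted p 0.0759 and 0.132, edgeR's quasi-likelihood test), and neither passed. DESeq2 and limma-voom each called both, among 1059 and 996 called of all 14918 genes. Irf1, a further target, was at 309.3 ± 19.9 and 332.4 ± 15.1 CPM.

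Of 9 genes that answer to IL-2 and STAT5, none passed in edgeR's quasi-likelihood test, DESeq2 or limma-voom, and 1, 2 and 2 of them stood at an unadjusted p under 0.05. Of all 14918 genes, 2384, 2641 and 3217 stood there. By value 8 of the 9 were higher in DKO and 1 lower, with a median log2 fold change of 0.23 against -0.01 for all genes. Their summed CPM was 325.6 to 562.4 in control and 495.4 to 540.0 in DKO, so the DKO sums lay inside the control range. Il2ra, the inducible IL-2 receptor chain, was at 37.6 ± 9.46 and 45.2 ± 5.01 CPM, with control replicate 1 the lowest library at 26.6 CPM. Of 12 genes that act on the decay of AU-rich mRNAs, none passed in edgeR's test or limma-voom, where 2 and 5 stood at an unadjusted p under 0.05, and DESeq2 called Elavl1. These counts stand against 2384 and 3217 of all 14918 genes at that p, and 1059 called by DESeq2. Elavl1, the stabilising protein HuR, was at 259.8 ± 17.2 and 303.8 ± 9.82 CPM (adjusted p 0.125, edgeR's quasi-likelihood test). Zfp36, the destabilising protein tristetraprolin, was at 163.5 ± 19.3 and 199.2 ± 12.5 CPM (adjusted p 0.147, the same test).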

How the data were processed

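PolyA RNA of 9 libraries was sequenced from libraries made with Takara and Illumina Nextera kits, per the labels' protocols. Per the submitters' processing notes, Trim Galore 0.6.0, STAR 2.7.8a and mm10 were used. The authors deposited raw gene counts, a file for each library, as STAR writes them with unstranded and per-strand columns. Their annotation is not given in the sources used here. Since the strand columns were nearly equal (49.9 to 50.1% in the first), the unstranded column served, which leaves out reads where genes overlap.

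Lines naming no gene stayed out of library sizes and tests: unmapped (10.3 to 16.7% of reads), multimapping (5.80 to 6.79%), no feature (4.01 to 5.20%) and ambiguous (4.97 to 5.31%). Of the 55471 identifiers, 55230 matched GENCODE M21 without version, and coordinates come from that annotation. No 2 libraries of a group were duplicates (chi-square over degrees of freedom at least 9.70 in 16 pairs). Tests used edgeR 4.0.16 (quasi-likelihood F-test, robust, TMM factors 0.987 to 1.03, filterByExpr with a minimum count of 10 and minimum total of 15), in R 4.3.3, with Benjamini-Hochberg adjustment over 14918 genes at 0.05. CPM, TPM and log2 CPM (prior count 2, used for components and correlations) were computed here from the deposited counts.

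Alternatives were edgeR with size factors from DESeq2, the Wald test of DESeq2 1.42.0, limma-voom with quality weights (limma 3.58.1), no filter, a filter of 1 CPM in 4 libraries, summed strand columns, a replicate block, 1 surrogate variable (sva 3.50.0), each library left out, longest-transcript lengths, and pairs without 2 libraries. DESeq2 gave no adjusted p for 2 of the 8 members tested, Il2 and Xcl1. The members, lists and tests were chosen with earlier results of these data known. Named by rule were the members, the targeted genes, each pathway-list gene past the threshold and the 3 genes most correlated with Ifng. Some genes that this rule names are left out and not reported here. Other list and marker genes were picked as examples after their values were seen. The tests were tested on simulated data. Python 3.11.15, numpy 2.4.6, pandas 2.3.3, scipy 1.17.1 and matplotlib 3.10.9 were used.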

Additional observations from a re-analysis of the deposited data

Results flagged for a closer look

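In 36 groups of libraries checked for a value far from the rest, chance flags about 1 in 20. Tgfb1 in control replicate 1 was the 1 value found, at 80.7 CPM where the other 3 controls lay between 96.2 and 97.3 CPM, a gap of 0.933 of the group's range.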

How the results depend on the processing

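No member passed the threshold under any of the 17 alternatives to the comparison of DKO with control, and Ifng, Csf1, Ccl3, Ccl4 and Ccl5 stayed lower and Xcl1 higher in each that could test them; with the filter of 1 CPM in 4 libraries Il2 and Xcl1 were not tested. The log2 fold change of Il2 turned to 0.0877 with 1 surrogate variable and, with a library left out, ranged from -0.529 (without control replicate 3) to 0.0836 (without control replicate 1). That of Il16 turned to -0.00588 in limma-voom, -0.00536 with summed strand columns and -0.00220 with 1 surrogate variable, and ranged from -0.0333 (without control replicate 1) to 0.0674 (without control replicate 4). The cause was not tested. Calls over all genes, 422 in edgeR's test, were 1059 in DESeq2, 996 in limma-voom, 1148 with 1 surrogate variable and 179 to 749 with a library left out: 749 without control replicate 1, 187 without control replicate 4, and 179, 280, 180, 221 and 228 without DKO replicates 1 to 5. Calls among pathway-list genes, 7 in edgeR's test, were 13 in DESeq2, 12 in limma-voom, 4 with no filter, 14 with 1 surrogate variable and 4 to 10 with a library left out. No pairing by replicate number was seen (r of same-numbered deviations -0.117 to 0.0124 over 4 pairs, and 0 of 8 libraries correlated best with their own number). So few pairs cannot show that none exists, and the labels do not say whether equal numbers share an animal or day. With the replicate block 67 genes, 1 list gene (Ccl9) and 0 members were called. With the longest transcript as length, levels moved to 303.6 TPM for Ccl4, 165.8 for Ccl3, 90.6 for Ifng and 109.1 for Il16. With both strand columns added, an alternative chosen after seeing the data, they moved to 22311 for Ccl5, 344.8 for Ccl4, 95.3 for Ifng, 191.1 for Il16, 4.04 for Xcl1 and 0.459 for Csf2. Without the 2 libraries farthest from the median of Ifng, r fell to 0.131 for Ifng and Xcl1 and 0.431 for Ifng and Ccl3. Depth limits Il2, Xcl1, Csf2 and Il10.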
